A study of Mus musculus with 2 samples.

Results

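The genes described here encode the machinery that copies and divides the genome. They are 56 of the 22115 genes with a symbol on the array, chosen by name: 27 act in mitosis and 29 in DNA replication. They are covered by 62 of the 35556 probe sets, and a gene with more than 1 probe set is represented by the brightest, judged by the mean of both arrays. Array names are used, so that Cdc2a stands for Cdk1 and Cdc45l for Cdc45.

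The cells were mouse bone-marrow-derived macrophages of the C57BL/6J strain, grown for 7 days in medium with supernatant of L929 fibroblasts, a source of the growth factor CSF1. The 2 groups were WT (wild-type) and Oasl1-/- macrophages, the latter without a working Oasl1 gene, and both received poly(I:C), a double-stranded RNA made by synthesis, at 5 µg/ml for 9 h, with no array of untreated cells. RNA of 3 samples per genotype was mixed before labelling, which left 1 Affymetrix Mouse Gene ST array per genotype. No difference below has a replicate check, no test was possible and no p-value is given.

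Dividing cells make these transcripts in 2 waves. Before S phase, cyclin-dependent kinases phosphorylate the retinoblastoma protein, E2F factors are released, and genes for origin licensing, DNA polymerases and nucleotide synthesis are transcribed. Later, the MuvB core with B-MYB and FOXM1 acts through the CHR element (cell cycle genes homology region) and through NF-Y, which binds the CCAAT box, to switch on cyclin B, the mitotic kinases and the spindle genes. Macrophages grown from marrow keep dividing while CSF1 is present, and type I interferon is known to slow that growth.

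The CHR element was more common among mitosis members and the E2F site among replication members, although most replication members searched held no E2F site. The CCAAT box separated the groups less. A few promoters are shown before the values. In windows from 250 bases before to 50 after the gene start (RefSeq, GRCm38.p6), available for 47 members, a CHR element (TTTGAA on either strand) was present in 16 of 23 mitosis genes (69.6%) and in 3 of 24 replication genes (12.5%). Over all 27025 genes of the table the share was 20.2%. An E2F site, spelled TTTCCCGC, TTTCGCGC, TTTGCCGC or TTTGGCGC on either strand, was present in 9 of 24 replication genes (37.5%) and in 1 of 23 mitosis genes (4.35%), against 2.60% of all genes. The CCAAT box, read on either strand, was found in 17 mitosis genes (73.9%) and in 14 replication genes (58.3%), against 41.1% of all genes. Both a CHR element and a CCAAT box were held by 14 of the mitosis genes and by 2 of the replication genes. These are counts of letters, not of bound sites, and a gene with several windows was counted if any window held the motif.

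The mitosis members Cdk1 (chr10:69352863-69353162, minus strand) and Ccnb2 (chr9:70421505-70421804, minus strand) and the replication members Mcm2 (chr6:88898731-88899030, minus strand) and Mcm3 (chr1:20820263-20820562, minus strand) hold the most kinds of these motifs among members above background on both arrays, with ties settled by name. Each is written 5′ to 3′ on the strand of the gene, and capitals mark a match to any of the searched motifs.
Cdk1: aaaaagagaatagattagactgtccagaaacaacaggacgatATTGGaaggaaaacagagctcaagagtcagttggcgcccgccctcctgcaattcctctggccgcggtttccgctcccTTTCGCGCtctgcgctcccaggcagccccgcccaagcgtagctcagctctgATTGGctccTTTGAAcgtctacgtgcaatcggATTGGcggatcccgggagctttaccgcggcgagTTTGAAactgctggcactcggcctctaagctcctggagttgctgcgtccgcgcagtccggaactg
Ccnb2: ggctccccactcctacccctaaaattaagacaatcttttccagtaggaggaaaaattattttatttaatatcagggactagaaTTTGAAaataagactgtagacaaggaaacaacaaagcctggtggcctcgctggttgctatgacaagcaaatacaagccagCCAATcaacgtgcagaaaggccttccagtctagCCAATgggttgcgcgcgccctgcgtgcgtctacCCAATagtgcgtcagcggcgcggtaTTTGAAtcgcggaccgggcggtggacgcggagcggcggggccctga
Mcm2: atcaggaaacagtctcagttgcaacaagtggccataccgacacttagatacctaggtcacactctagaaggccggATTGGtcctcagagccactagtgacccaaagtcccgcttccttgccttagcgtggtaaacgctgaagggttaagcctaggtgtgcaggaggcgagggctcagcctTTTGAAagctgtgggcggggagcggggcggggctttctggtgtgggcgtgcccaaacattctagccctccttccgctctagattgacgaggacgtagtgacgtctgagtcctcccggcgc
Mcm3: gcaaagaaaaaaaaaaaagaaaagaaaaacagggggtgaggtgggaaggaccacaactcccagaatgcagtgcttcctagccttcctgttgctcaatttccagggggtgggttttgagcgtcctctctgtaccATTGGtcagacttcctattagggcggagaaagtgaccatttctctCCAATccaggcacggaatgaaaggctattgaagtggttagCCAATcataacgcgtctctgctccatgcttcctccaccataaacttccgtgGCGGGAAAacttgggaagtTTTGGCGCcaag
The Ccnb2 window has 3 CCAAT boxes and 2 CHR elements, 1 of them starting 4 bases after the gene start, and no E2F site. The Mcm3 window has 2 E2F sites, both after the gene start, and no CHR element. Cdk1, which is made from late S phase on, holds all 3 kinds, and Mcm2 is a replication gene with a CHR element.

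**Figure D1:**
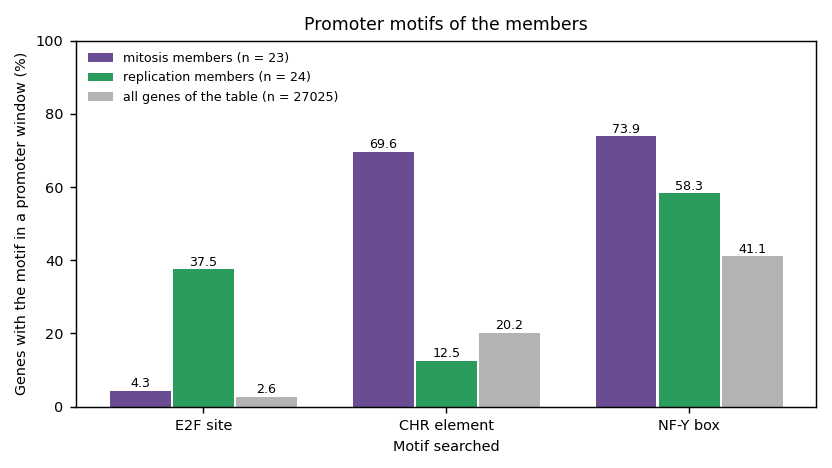
Share of genes (%) with an E2F site, a CHR element or an NF-Y (CCAAT) box in a promoter window, for 23 mitosis members, 24 replication members and all 27025 genes of the table. The CHR bar is tallest for mitosis members (69.6%) and the E2F bar for replication members (37.5%).

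Values are log2 intensities as summarised by the authors, and differences are Oasl1-/- minus WT on that scale. The floor of an array was set at the level that 95% of its 5267 negative control probe sets did not exceed, namely 7.75 (WT) and 7.68 (Oasl1-/-). These controls are intron and background probe sets, and their median difference was -0.16. The 896 exon control probe sets above the floor on both arrays had a median difference of -0.01. Of all genes, 6387 (28.9%) exceeded the floor on either array or both and are called above the floor. Their median difference was -0.04, the middle 50% lay between -0.15 and 0.05, and 36.5% had a value higher in Oasl1-/-. Oasl1 itself was 12.59 (WT) and 11.13 (Oasl1-/-), with a difference of -1.46. All 8 macrophage markers were above the floor on both arrays with a median difference of 0.03. None of 5 T cell, 4 B cell, 5 erythroid, 3 megakaryocyte, 4 stem and progenitor or 5 fibroblast markers was above it. Of 6 granulocyte precursor markers 1 was, Ngp, on the Oasl1-/- array only (6.90 and 7.79). All 6 of these markers had higher values in Oasl1-/-, 5 of them below both floors, and their summed linear intensity was 316 in WT and 454 in Oasl1-/-. Other marker lists below the floor were mostly higher too, namely 3 of 3 megakaryocyte, 4 of 5 erythroid, 4 of 5 fibroblast, 3 of 4 B cell and 3 of 4 stem and progenitor markers against 2 of 5 for T cells, and 53.3% of all genes were higher with no floor. Whether such cells contribute to the differences of the members was not tested, and in mixed RNA more dividing cells and more RNA per dividing cell cannot be told apart.

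No member differed by 1.5-fold, and most values were nearly the same in both genotypes. Of the 33 members above the floor, 24 were higher in Oasl1-/- and 9 lower, with a median difference of 0.06. The higher share of all genes at this floor was 36.5%. Among the 33, 4 passed through the Oasl1-/- array alone and so count towards the higher side by selection. Requiring the floor on both arrays left 29 members, 20 higher and 9 lower (median 0.05), beside 36.1% higher of all such genes. At least 1.2-fold higher by the measured values were 5 of the 33 (Mcm10, Mcm3, Mcm5, Ccnb1 and Cdc45l, whose bound of 1.18 is smaller). At least 1.2-fold lower was 1 (Ccne1). Among all genes above the floor, 0.877% differed by 1.5-fold in either direction, 2.66% were at least 1.2-fold higher and 8.89% at least 1.2-fold lower. The other 23 members exceeded neither floor, with 12 higher and 11 lower. With no floor, 36 of all 56 members were higher, beside 53.3% of all genes.

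**Figure D2:**
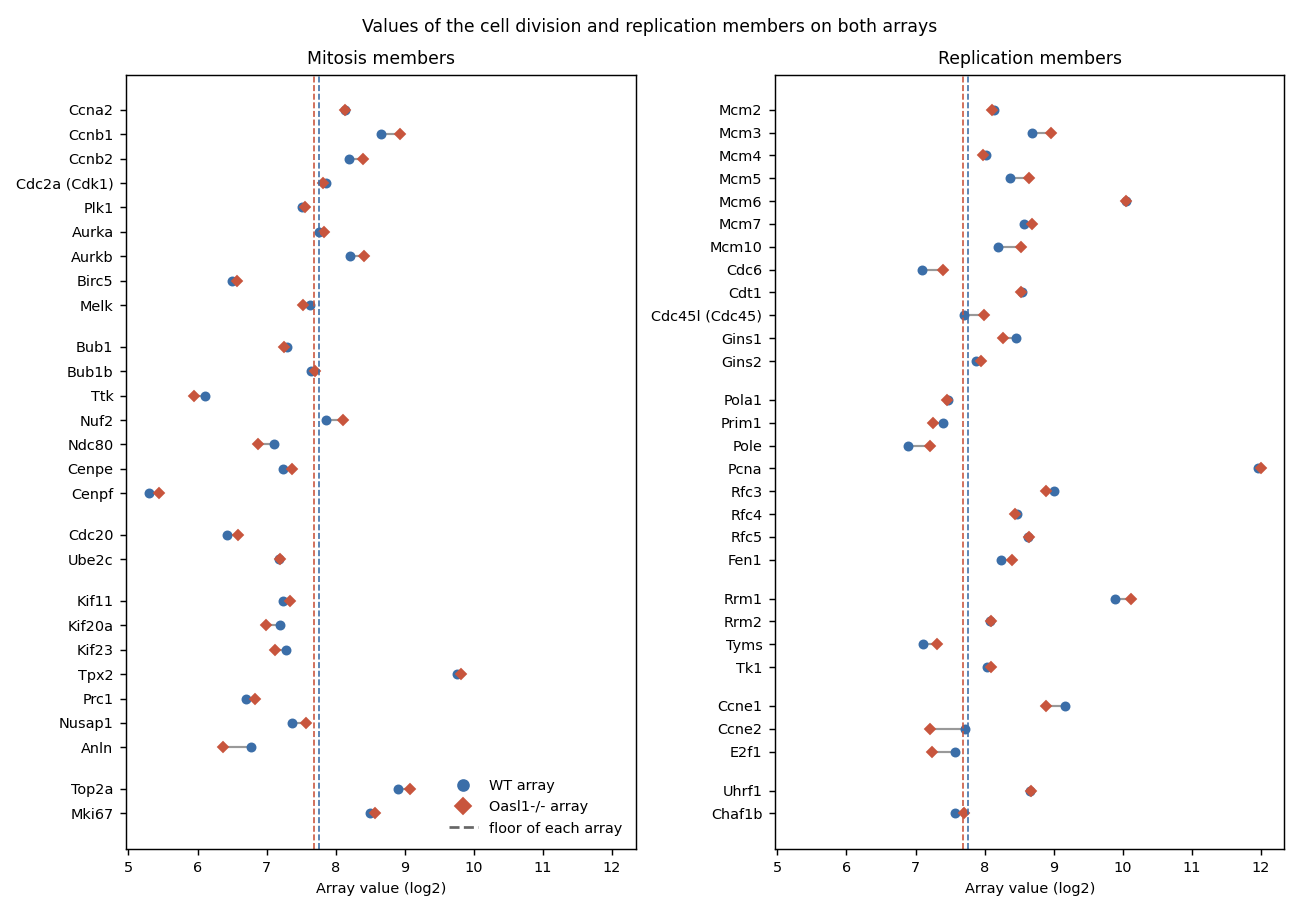
Log2 value of each member on the WT array (blue circles) and the Oasl1-/- array (red diamonds), with mitosis members on the left, replication members on the right, gaps between roles and dashed lines at the floors of 7.75 (WT) and 7.68 (Oasl1-/-). Most pairs of symbols nearly coincide, and 16 mitosis but only 7 replication members lie below both floors.

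More of the replication genes than of the mitosis genes were measurable at this floor. Of 29 replication members 22 passed the floor on either array and 20 on each, while of 27 mitosis members 11 passed on either and 9 on each, beside the 28.9% of all genes given above. A floor at the 90th percentile of the negative controls was chosen after seeing the data. With it, 29 of 29 replication and 21 of 27 mitosis members passed on either array, a smaller contrast. With the array median as the floor 29 of 29 and 26 of 27 passed, and most of the contrast was gone. The share of all genes passing these floors is not given here. The 11 mitosis members had a median difference of 0.08, with 10 higher in Oasl1-/-. The 22 replication members had a median of 0.04, with 14 higher and 8 lower. The replication median was thus lower than the mitosis median by a difference of -0.04 (log2), which is smaller than the range within either group. Aurka, Bub1b, Cdc45l and Chaf1b entered through the Oasl1-/- array alone and so count towards the higher side by selection. Over members above the floor on both arrays, 8 of 9 mitosis genes and 12 of 20 replication genes were higher, with medians of 0.17 and 0.02, where 36.1% of all such genes were higher. With no floor, 19 of 27 mitosis genes (median 0.07) and 17 of 29 replication genes (median 0.02) were higher, while over all genes 53.3% were higher and the median was 0.02, so the replication genes then lie near all genes.

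The count of replication genes on each side depended on scaling. With differences centred on the median gene 18 of 22 were higher, and 19 of 22 were higher after quantile normalization or removal of the trend with brightness, where the share over all genes was 50.0%, 47.7% and 50.4%. Mitosis genes then numbered 10, 11 and 11 of 11. These counts include Aurka, Bub1b, Cdc45l and Chaf1b, which passed through the Oasl1-/- array alone and lean to the higher side by selection. No count limited to members above the floor on both arrays was made under these scalings. Genes with mean values from 8 to 9, where most measurable members lie, had a median difference of -0.08, and 30.3% of these 2209 genes were higher in Oasl1-/-.

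**Figure D3:**
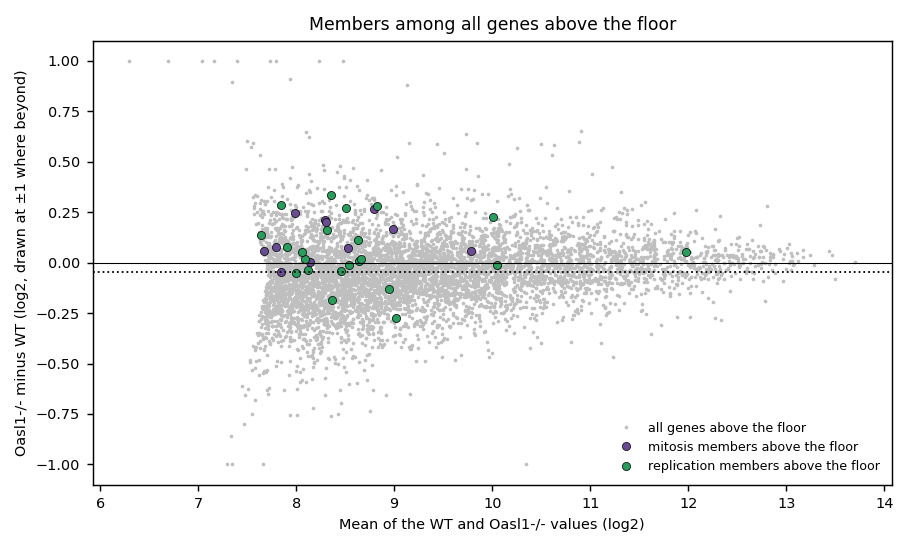
Difference between the arrays (Oasl1-/- minus WT, log2) against the mean value (log2) for all 6387 genes above the floor (grey), 11 mitosis members (purple) and 22 replication members (green), with a dotted line at the median of all genes (-0.04) and 14 genes beyond 1 drawn at the edge. The members lie inside the cloud of all genes, between -0.27 and 0.34, with most at or above the dotted line.

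Among the mitotic kinases and their cyclins, the cyclin B genes and Aurkb were the higher ones. Ccnb1, the activating subunit of the kinase that drives entry into mitosis, was 8.66 (WT) and 8.93 (Oasl1-/-), with a difference of 0.27. Ccnb2, the second B-type cyclin, was 8.19 and 8.40, a difference of 0.21. Aurkb, the kinase of the chromosomal passenger complex, was 8.20 and 8.40, a difference of 0.20. The value of their kinase partner was not higher: Cdc2a, the catalytic subunit bound by the B cyclins, was 7.86 and 7.82, a difference of -0.05 that became positive after quantile normalization and after removal of the trend. Ccna2, the cyclin of S phase and early mitosis, was level at 8.13 and 8.14. Aurka, the centrosomal Aurora kinase, had values of 7.75 (WT, just under the floor) and 7.83 (Oasl1-/-), which bounds the fold at 1.05 or more. Plk1 (7.51 and 7.56), the Polo-like kinase, Melk (7.63 and 7.52), a kinase made in dividing cells, and Birc5 (6.49 and 6.58), the survivin subunit of the passenger complex, were below the floor on both arrays.

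Of 7 kinetochore and checkpoint genes 2 were above the floor, 1 of them on the Oasl1-/- array alone. Over all 7, mostly below the floor, 4 had higher values in Oasl1-/- and 3 lower ones. Nuf2, a subunit of the NDC80 complex that holds microtubules at the kinetochore, was 7.86 (WT) and 8.11 (Oasl1-/-), with a difference of 0.24. Ndc80, its direct partner in that complex, was 7.11 and 6.88, with both values below the floor. Bub1b, the BubR1 checkpoint protein, was 7.64 and 7.70, above the floor on the Oasl1-/- array alone and too close to it for a bound on the fold. Below the floor on both arrays were the kinetochore motor Cenpe (7.24 and 7.37), the kinetochore protein Cenpf (5.30 and 5.44), the checkpoint kinase Ttk (6.10 and 5.94) and Bub1. Cdc20 (6.42 and 6.58), which activates the anaphase-promoting complex, and Ube2c (7.18 and 7.19), a ubiquitin-conjugating enzyme that works with it, were below the floor as well.

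Of the spindle and cytokinesis genes, Tpx2 alone was above the floor. Tpx2, which nucleates spindle microtubules and activates Aurora A, was 9.75 (WT) and 9.81 (Oasl1-/-), with a difference of 0.06. The other 6 were below the floor on both arrays, with 3 higher and 3 lower in Oasl1-/-. They include Anln (6.78 and 6.37), the actin-binding scaffold of the cleavage furrow, and Nusap1 (7.37 and 7.57), a microtubule-bundling protein. Kif20a (7.20 and 6.99) and Kif23 (7.28 and 7.11), motors of the central spindle, had lower values, and Prc1 and Kif11 higher ones. Both chromosome genes were above the floor and higher: Top2a, topoisomerase II alpha, at 8.90 and 9.07, a difference of 0.17, and Mki67, the Ki-67 proliferation antigen, at 8.49 and 8.56, a difference of 0.07.

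Of the genes that start replication, Mcm10 had the largest difference measured on both arrays. Mcm10, which helps turn the loaded helicase into an active one, was 8.19 (WT) and 8.53 (Oasl1-/-), with a difference of 0.34 or 1.26-fold. Cdc45l, a subunit of the active CMG helicase, had 7.70 (WT, under the floor) and 7.99 (Oasl1-/-), which makes it at least 1.18-fold higher. Cdc6, a licensing factor that loads the MCM ring, was 7.10 and 7.40, with both values below the floor. Its partner in licensing, Cdt1, was level at 8.54 and 8.53. The GINS subunits, which complete the CMG helicase, differed in sign: Gins2 was 7.87 and 7.94, and Gins1 was 8.45 and 8.27, a difference of -0.18.

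The 6 subunits of the MCM2-7 ring, the replicative helicase loaded at origins, did not all differ in the same way. Mcm3 was 8.68 in WT and 8.96 in Oasl1-/- (0.28), Mcm5 was 8.37 and 8.64 (0.27), and Mcm7 was 8.57 and 8.68 (0.11). Mcm2 was 8.14 and 8.11 (-0.03), Mcm4 was 8.03 and 7.98 (-0.05), and Mcm6 was 10.05 and 10.04 (-0.01). So 3 subunits were higher, and the other 3 lay within 0.05 of equality on the log2 scale. Those 3, with Cdt1 and Rfc4, took a positive sign after quantile normalization and after removal of the trend with brightness.

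Polymerase and fork genes were close to equal, apart from Fen1 and Rfc3 among those above the floor. Pcna, the sliding clamp, was 11.95 in WT and 12.00 in Oasl1-/-. Fen1, the flap endonuclease that trims Okazaki fragments, was 8.24 and 8.40, a difference of 0.16. The clamp loader subunits among the members were level or lower: Rfc3 was 9.01 and 8.88 (-0.13), Rfc4 was 8.47 and 8.43 (-0.04), and Rfc5 was 8.63 and 8.64 (0.01). Outside the members, the subunit Rfc2 was higher at 8.27 and 8.45 (0.18), and Rfc1 was lower at 8.23 and 8.05 (-0.18). Pole (6.88 and 7.21), the leading-strand polymerase, Prim1 (7.40 and 7.25), a primase subunit, and Pola1 (7.47 and 7.45), polymerase alpha, were below the floor on both arrays.

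Of the genes of nucleotide supply, Rrm1 was higher in Oasl1-/-, and Rrm2 and Tk1 were close to equal by the brightest probe sets. Tyms was below the floor, and the probe sets of Tk1 differed in sign. Rrm1, the large subunit of ribonucleotide reductase, was 9.89 (WT) and 10.12 (Oasl1-/-), with a difference of 0.23 or 1.17-fold. Rrm2, the small subunit that is limiting in the cell cycle, was 8.08 and 8.10. Tyms, thymidylate synthase, was 7.10 and 7.31, below the floor on both arrays, and Tk1, the cytosolic thymidine kinase, was 8.03 and 8.09. Of the chromatin genes, Uhrf1, which recruits DNA methylation to new strands, was level at 8.65 and 8.67. Chaf1b, a subunit of the CAF-1 histone chaperone, was 7.57 and 7.71, above the floor on the Oasl1-/- array alone and without a bound on the fold.

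Of the 3 genes that govern the G1/S step only Ccne1 was above the floor, and it was lower in Oasl1-/-. Ccne1, cyclin E1, which activates CDK2 at the start of S phase, was 9.16 (WT) and 8.88 (Oasl1-/-), with a difference of -0.27 or 1.21-fold lower, the only member above the floor that was 1.2-fold lower. Ccne2, the second cyclin E, was 7.72 and 7.21, with the WT value just under the floor of 7.75. E2f1, the activator E2F that drives this wave of transcription, was 7.57 and 7.24. Both are below the floor on both arrays, so their lower values in Oasl1-/- are no measured difference. Each of the 3 has 1 probe set, so that only the 3 scalings (centring, quantile normalization and trend removal) could turn a sign, and with these Ccne1 ran from -0.23 to -0.21. Of the members above the floor, Gins1, Rfc3 and Ccne1 were negative under all 3 scalings.

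**Figure D4:**
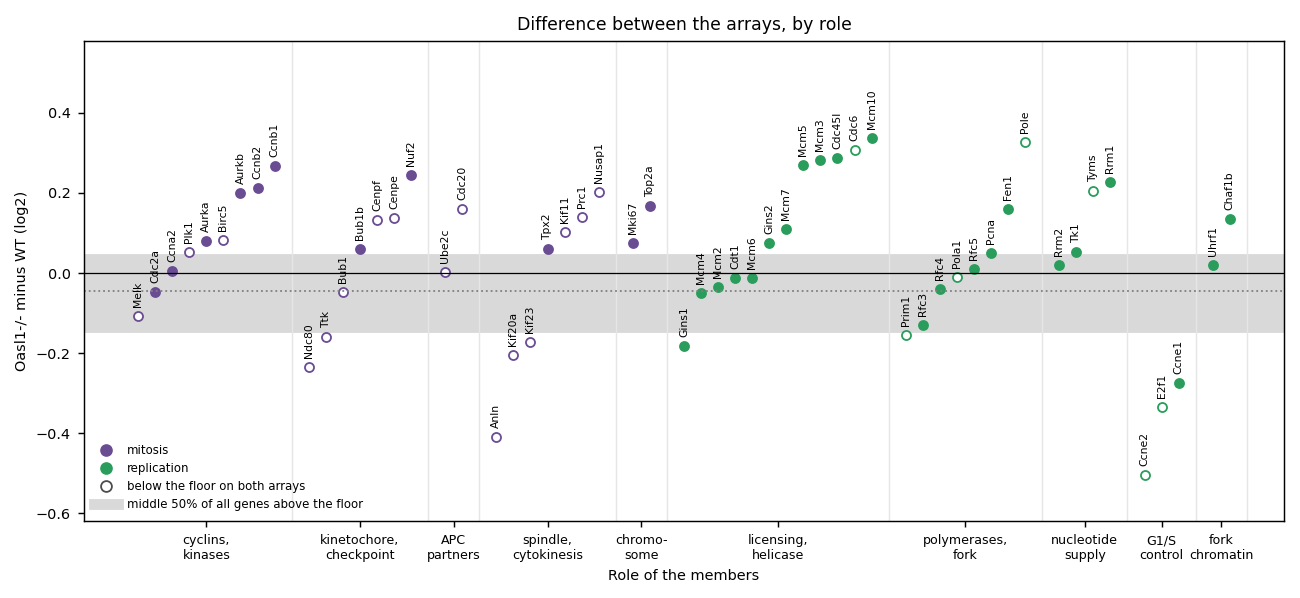
Difference between the arrays (Oasl1-/- minus WT, log2) for all 56 members, ordered within 10 roles, with open circles for members below the floor on both arrays and a grey band for the middle 50% of all genes above the floor (-0.15 to 0.05). Of the filled circles, Ccne1 (-0.27) and Gins1 (-0.18) lie below the band. Those above it include both mitosis and replication members, with Ccnb1, Mcm5, Mcm3, Cdc45l and Mcm10 the highest, between 0.27 and 0.34.

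For 5 members more than 1 probe set gave readings of the same name. The 3 probe sets of Ccnb1 had differences of 0.27, 0.28 and 0.30, and the brightest lies on chromosome 7 (49361266 to 49362555, NCBIM37), not on chromosome 13 where the gene is. Probes for a near-identical copy can bind the same transcript, so these readings are not independent. Pcna gave 0.05 on its own chromosome 2 and 0.04 on chromosome 19. The probe sets of Tk1 differed: the bright probe set lies on chromosome 8 over 165 bases (129000148 to 129000312), and the one over the gene on chromosome 11 was 7.36 (WT) and 6.98 (Oasl1-/-), with a difference of -0.38 below the floor. Fen1 had 0.16 on its own strand and -0.13 on the opposite strand at a dim signal (5.72 and 5.59). Top2a had 0.17 at the gene and 0.30 at a dim probe set on chromosome 9 (3.47 and 3.78). Across the 500 genes with at least 2 probe sets above the floor on both arrays, the median gap between probe sets of a gene was 0.06 and the 90th percentile 0.19.

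**Figure D5:**
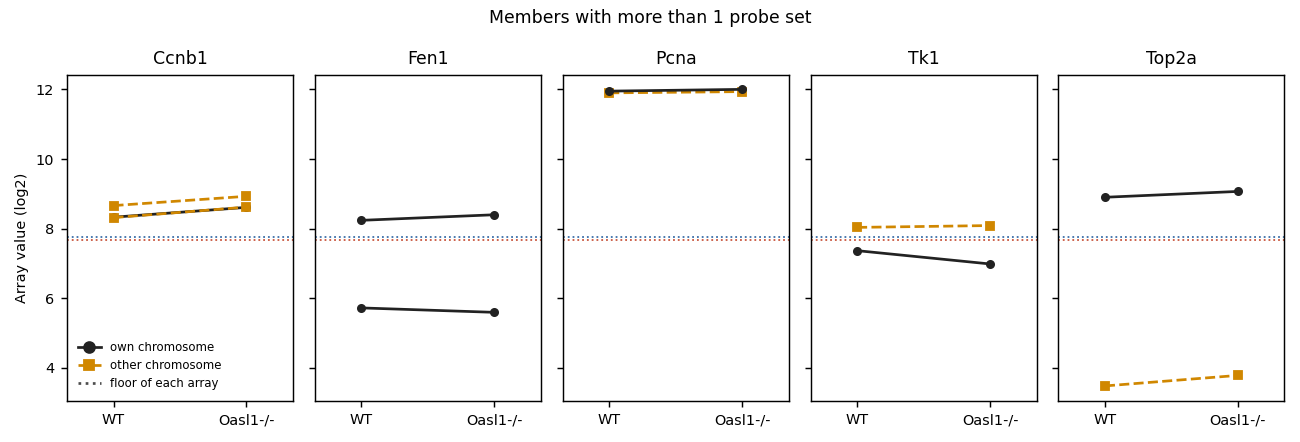
Log2 value on the WT and Oasl1-/- arrays at each probe set of the 5 members that have more than 1, with solid black lines for the gene's own chromosome, dashed orange lines for another chromosome and dotted lines at the floors. The Ccnb1 lines run parallel, and the Tk1 lines differ in slope and in side of the floor.

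Other genes of the cell cycle, were taken from lists that exclude the members, and the lists were not tested against each other. Of 25 further mitosis genes 10 passed the floor, 6 of them higher (median 0.02). Cenpa and Ect2 passed through the Oasl1-/- array alone and so count towards the higher side by selection. Of 25 further replication genes 14 passed, 7 of them higher (median -0.00), with Orc5l passing through the WT array alone. The share for all genes at this floor was 36.5% (median -0.04). Requiring the floor on both arrays left 4 further mitosis genes higher and 4 lower (median -0.003). It left 7 further replication genes higher and 6 lower (median 0.04), beside 36.1% higher of all such genes. With no floor, 17 of the 25 further mitosis genes were higher (median 0.09), near the 19 of 27 (median 0.07) of the mitosis members, and 9 of the 25 further replication genes were (median -0.05), where 53.3% of all genes were higher. Ect2, which activates RhoA for cytokinesis, had 7.67 (WT) and 7.91 (Oasl1-/-) and was at least 1.12-fold higher, while Racgap1, its partner, was 8.20 and 8.37 (0.17). Cenpa, the centromeric histone, was 7.51 and 7.71, and Zwint, a kinetochore protein, was 8.87 and 8.69 (-0.18). Among replication genes, the single-strand binding subunit Rpa1 had a difference of 0.21, while the origin recognition subunits Orc6l and Orc4l had -0.22 and -0.18 and Orc5l was at least 1.05-fold lower.

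The regulators upstream of both waves had differences of both signs. Over all genes above the floor 36.5% were higher in Oasl1-/-, so lower values were the more common ones. The 6 D-type cyclin and G1 kinase genes were all above the floor and near equal, from -0.06 for Ccnd1 (11.26 and 11.19) to 0.00 for Ccnd3, with Cdk2 at -0.05, Ccnd2 at -0.03 and Cdk6 at -0.02. Of 10 CDK inhibitor and pocket protein genes 5 were above the floor, with 3 higher, 2 lower and a median of 0.03. Rb1, the retinoblastoma gene, was 8.18 in WT and 7.69 in Oasl1-/-, barely above the floor there, a difference of -0.49. Its relative Rbl1 had 0.06, and the inhibitors Cdkn2d and Cdkn1a had 0.15 and -0.04. Of 15 E2F, B-MYB and FOXM1 factor genes 5 were above the floor and 4 of them lower. Lin54, the MuvB subunit that binds the CHR element, was 8.56 and 8.82 (0.26). E2f4, the main E2F of quiescent cells, was 7.92 and 7.72 (-0.20), E2f8 had -0.11 and Tfdp1 had -0.19, the last at a probe set off its own chromosome. Of 11 DNA damage and p53 genes 6 were above the floor, with 2 higher and 4 lower, close to the share over all genes. Gadd45a, a growth arrest gene, had 8.03 (WT) and 7.41 (Oasl1-/-, under the floor) and was at least 1.27-fold lower. Atm and Trp53 had -0.27 and -0.17, and Wee1, the kinase that restrains Cdk1, had 0.16.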

How the data were processed

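RNA mixed from 3 samples per genotype was hybridised to 1 Affymetrix Mouse Gene ST array each. The deposited values are log2 probe set summaries made by the authors with GCOS and RMA, per the submitters' processing notes, with versions not given in the sources used here. The labels are silent on joint normalization of the arrays. RMA pulls small signals together, so differences of dim genes are understated, and mixing RNA hides the spread between cultures. The authors' log2 ratio equalled the Oasl1-/- minus WT value in all 35556 rows (tolerance 1e-06), and the second deposited table held the same values.

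The symbols are those of the deposited table. RefSeq (GRCm38.p6) gave each gene's chromosome and current name, by accession for 55 of the 56 members. A gene above the floor on 1 array only gets a bound on its fold, taken from the other array's floor or its value there, whichever is higher. No fold is given where the bound is under 1. Members, lists, roles and motifs were chosen with earlier results of these data known. Every member is named by role. Of each other list the 4 genes above the floor with the largest difference are named, and Rfc1 and Rfc2 are named besides. Alternatives were other floors and thresholds, centring, quantile normalization, a loess trend removed (span 0.3), a pseudocount of 32, other choices of probe set and the second table; a median that shifted by under 0.1 counted as unmoved. Code was tested on simulated data. Python 3.11.15, NumPy 2.4.6, pandas 2.3.3, statsmodels 0.14.6 and Matplotlib 3.10.9 were used. Precision is limited by the number of arrays.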

Additional observations from a re-analysis of the deposited data

How the results depend on the processing

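The median differences kept their sign in all 12 alternatives: 0.06 to 0.17 for mitosis genes and 0.02 to 0.10 for replication genes. Several alternatives could hardly turn a positive median. The second table held the same values, and a pseudocount keeps the sign of each gene. Centring, quantile normalization and trend removal raised the median of all genes, from -0.04 to 0.00, -0.01 and 0.00. The kept sign is therefore informative mainly for the other floors and choices of probe set. The gap between both medians ran from -0.15, with the floor required on both arrays, to -0.04. The number of measurable mitosis genes depended on the floor: it was 11, but 21 with the 90th percentile of the negative controls, an alternative chosen after seeing the data, and 26 with the array median, as dim genes are let in by construction. The replication count was 22, and 29 of 29 with either. With no floor 19 of 27 mitosis and 17 of 29 replication genes were higher (medians 0.07 and 0.02), against 53.3% of all genes (median 0.02). No member reached 1.5-fold in the 7 settings counted at that threshold or at 2-fold, and 6 reached 1.2-fold. Over 7 alternatives for single members, the sign changed for 8 of 56 after quantile normalization and for 8 after trend removal, for 5 after centring, and for Tk1 alone when probe sets were averaged (-0.16) or kept to the gene's own chromosome (-0.38). No paired analysis was possible because there is 1 array per genotype.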

Other observations

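The differences were also set against the promoter motifs. Mitosis members above the floor with a CHR element had a median of 0.08 (6 genes), and the 2 without had 0.26. Replication members above the floor with an E2F site had a median of 0.02 (7 genes), and the 12 without had 0.05. Other splits ran the other way: replication members with a CHR element had 0.16 (3 genes) against 0.04 (16 genes), and those with a CCAAT box 0.08 (12 genes) against 0.01 (7 genes). Mitosis members with a CCAAT box had 0.08 (7 genes), and the 1 without, Nuf2, had 0.24. The 1 mitosis member with an E2F site, Cdc2a, had -0.05, and the 7 without had 0.17. These are descriptions of few genes with no test.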
